A study of Caenorhabditis elegans with 2 samples.

Results

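The Hox genes of Caenorhabditis elegans are ceh-13, lin-39, mab-5, egl-5, php-3 and nob-1, and they make up 6 of the 19973 protein-coding genes on the nuclear chromosomes of the annotation. They were chosen by name as the whole Hox family, and every ChIP-seq peak with its summit from 10 kb upstream to 10 kb downstream of each gene was collected. ChIP-seq (chromatin immunoprecipitation with sequencing) had been used to map the homeodomain protein CEH-20 in 2 biological replicates of 1 group. Both came from strain RW12211, in which CRISPR inserted a tag of TY1, EGFP and 3xFLAG at ceh-20 on chromosome III (allele st12211). In both, animals obtained by bleaching had been synchronised by starvation as L1 larvae and whole animals were taken as L4 larvae at 49 hours, after which sonicated chromatin was precipitated with an antibody against GFP. No untagged or differently treated group was analysed here, and peaks were those of the tagged protein in the pooled cells of whole animals.

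Hox genes code for homeodomain transcription factors that give cells their position along the body axis. PBX proteins such as CEH-20 are partners of Hox proteins and bind DNA with them at composite sites. Hox genes are themselves regulated by Hox and PBX proteins in several animals. Within the worm family, ceh-13 is the anterior member and the ortholog of labial and the Hox1 genes, lin-39 acts in the midbody and in vulval precursor cells, and mab-5 acts further back, for instance in the migration of the QL neuroblast. The remaining members, egl-5, php-3 and nob-1, are posterior genes of the Abdominal-B type.

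All 6 genes lie on chromosome III in 3 pairs. The genes lin-39 and ceh-13 are 19.0 kb apart, mab-5 and egl-5 are 30.9 kb apart, and php-3 and nob-1 are separated by 236 bp. The distance from ceh-13 to mab-5 is 219 kb, and that from egl-5 to php-3 is 4.26 Mb. Genomic sequence (RefSeq, assembly WBcel235, which is ce11, plus strand) is shown for the sites on which the results turn. The first 5 lines hold a match to TGATNNAT, a composite site of PBX and Hox proteins, within 50 bp of the summit, and the last is the strongest peak of the family, which holds none. Capitals mark the match, and for mab-5, a gene of the minus strand, the match reads TGATATAT on that strand. The lin-39 line is cut to 30 bases because the site lies in a 5' UTR, and the other lines run from 50 bp before to 50 bp after the summit.
ceh-13 distal upstream site, chrIII:7549047-7549147: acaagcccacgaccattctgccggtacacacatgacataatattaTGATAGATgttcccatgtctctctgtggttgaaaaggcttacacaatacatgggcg
ceh-13 proximal upstream site, chrIII:7554835-7554935: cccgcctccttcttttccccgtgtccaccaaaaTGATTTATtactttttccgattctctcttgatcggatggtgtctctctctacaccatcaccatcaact
ceh-13 downstream site, chrIII:7560017-7560117: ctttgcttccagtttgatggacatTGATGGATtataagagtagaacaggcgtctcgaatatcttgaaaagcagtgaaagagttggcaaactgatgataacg
lin-39 site in the gene, chrIII:7534712-7534741: acgagtgaaagTGATTGATaagaattgatt
mab-5 intron site, chrIII:7780580-7780680: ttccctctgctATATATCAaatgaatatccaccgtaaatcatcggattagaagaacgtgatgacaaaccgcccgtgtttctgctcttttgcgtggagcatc
nob-1 upstream site, chrIII:12084891-12084991: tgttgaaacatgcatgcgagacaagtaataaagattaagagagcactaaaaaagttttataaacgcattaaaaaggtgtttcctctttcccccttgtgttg

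CEH-20 peaks lay around 5 of the 6 Hox genes, and egl-5 was the exception. The authors drew a conservative list of 2522 peaks from both replicates and cut it at a set irreproducible discovery rate (IDR). The IDR is low for peaks that rank high in both of 2 inputs. In this list 5 of 6 genes had a summit in their window, while 35.6% of all protein-coding genes did. The windows held 10 conservative peaks at 9 separate sites. With a larger thresholded list of 2632 peaks they held 13 and again reached 5 genes (36.4% of all), and the lists together gave 11 sites. The thresholded list of replicate 1 (1249 peaks) held 3 of the sites and reached 4 genes, beside 21.5% of all genes, and that of replicate 2 (1490 peaks) held 5 sites and reached 5 genes, beside 25.8%. Both replicates' thresholded lists had a peak near ceh-13, lin-39, php-3 and nob-1, which makes 4 of 6 genes against 17.4% of all. For lin-39 that peak lay nearest to a cux-7 start, and for php-3 nearest to the nob-1 start. The counts for php-3 and nob-1 are not independent, since their windows overlap and the same peaks serve both. Peak strength is given as the authors' own signal value, whose scale was not given in the sources used here, so values are compared only within a list. The conservative list had a median signal of 83.2. No read counts were in the lists, so the depth of each replicate is unknown and a signal has no error bar. In chromatin of whole animals, binding in few cells and weak binding in many cannot be told apart.

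**Figure D1:**
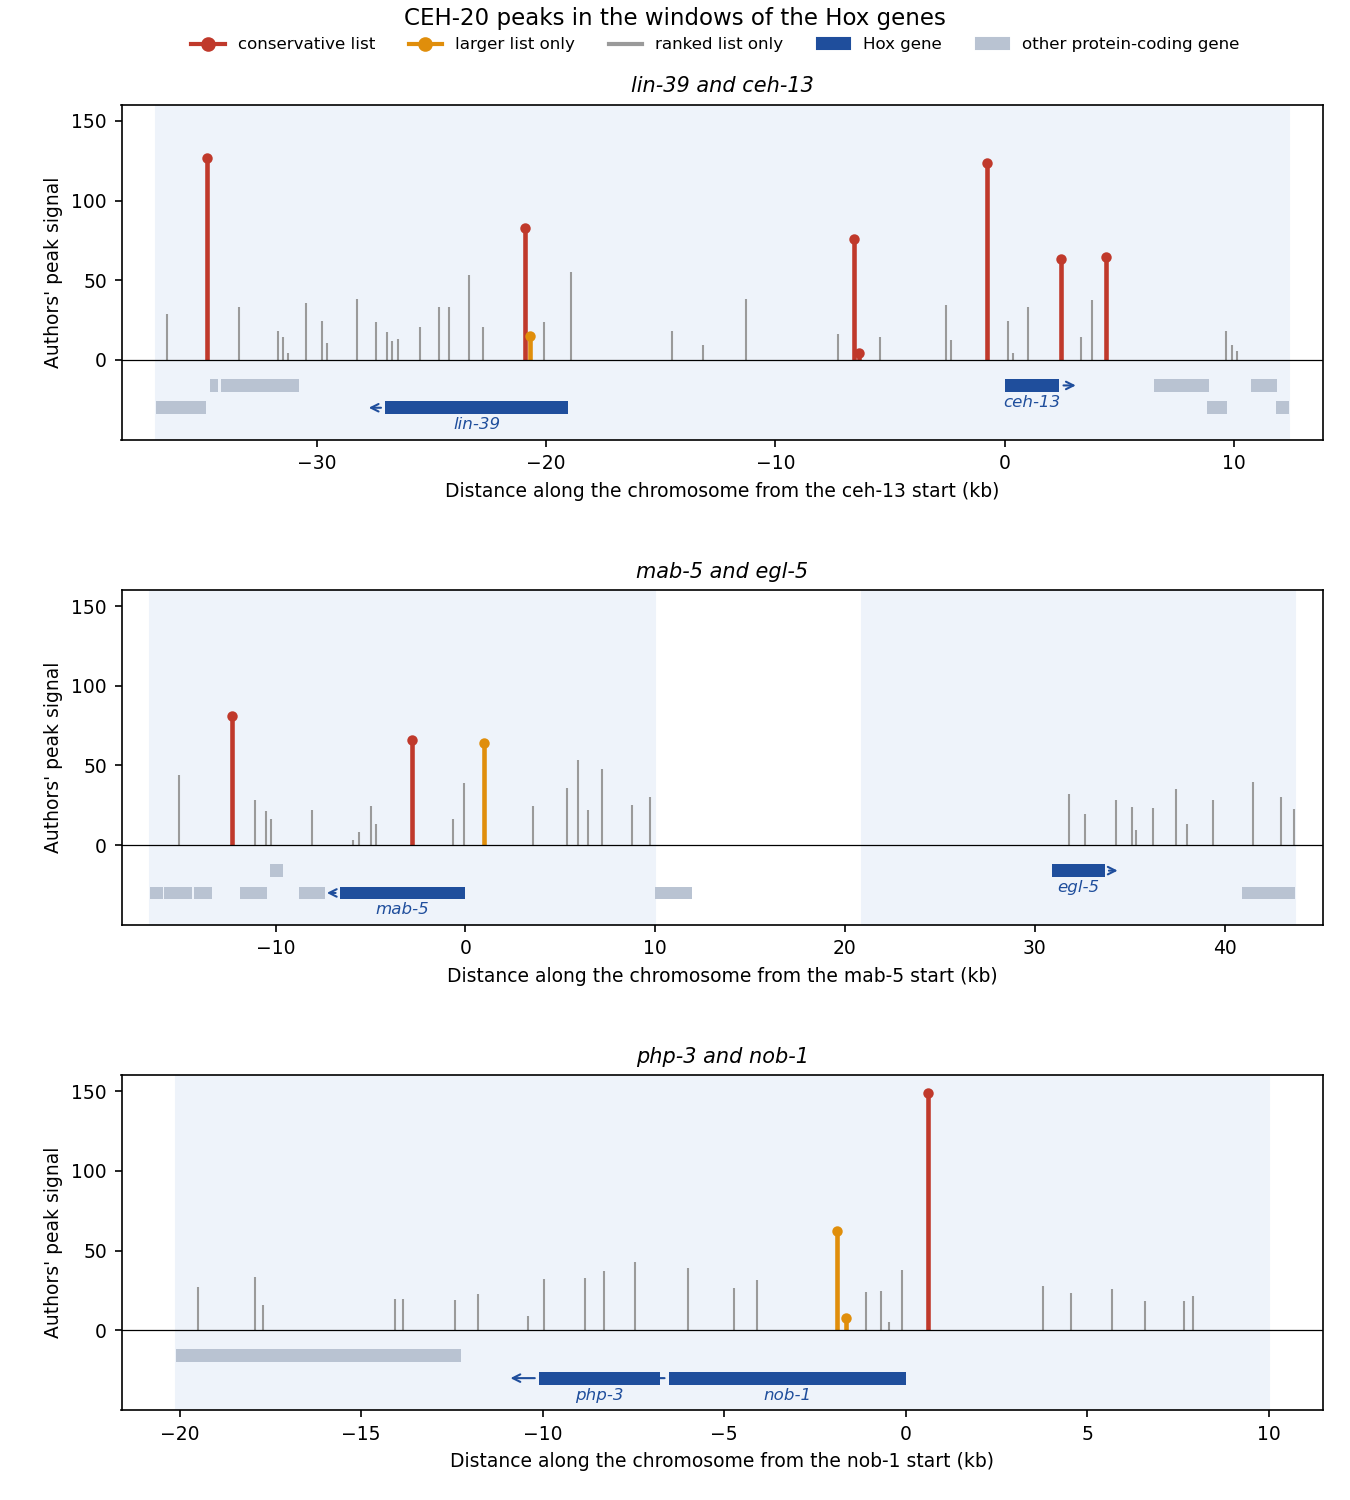
The authors' peak signal (vertical axis) is plotted against distance along chromosome III from the start of 1 gene in each panel (kb), with blue shading for the 10 kb windows, blue bars for Hox genes and grey bars for other genes. Red stems are peaks of the conservative list, orange stems those of the larger list alone, and grey stems those that appear only in the ranked list of both replicates without a threshold. The tallest stems are 149 near nob-1, 127 past lin-39 and 124 upstream of ceh-13, and no coloured stem stands in the window of egl-5.

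The anterior gene ceh-13 (chrIII:7555660-7558041, plus strand) had the most peaks of the family. Its strongest peak (chrIII:7554727-7555042) lay 775 bp upstream of the start and is the proximal upstream sequence above. There the signal was 124 in the conservative and in the larger list, 61.8 in the list of replicate 1 and 53.1 in that of replicate 2. It ranked 523 of 2522 conservative peaks, 584 of 1249 in replicate 1 and 728 of 1490 in replicate 2, which was above the middle rank in each of these lists. It was the only ceh-13 peak in either replicate's thresholded list.

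A distal peak (chrIII:7548939-7549254) lay 6563 bp upstream of ceh-13 in the intergenic stretch toward lin-39. Its conservative signal was 75.7, at rank 1549. In neither replicate did it pass the threshold, and in their ranked lists, which the authors deposited without a threshold, it had a signal of 39.4 in replicate 1 and 31.5 in replicate 2. The conservative list holds a further peak there (chrIII:7549139-7549454) with a signal of 4.44 at rank 2493. It overlapped the distal peak by 116 bp, its summit was 200 bp away, and the authors matched both peaks to the same peak in each input. The deposited q-value was 0.969 for the weak peak and 0.00769 for its neighbour, and they are treated as 1 site here. Such pairs are not particular to ceh-13: of 134 conservative peaks with a signal under 20, 129 overlapped a stronger peak.

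The 2 remaining ceh-13 sites lay downstream of the gene. One (chrIII:7557959-7558274) had its summit 76 bp past the annotated gene end, with a conservative signal of 63.6 at rank 2058. Its signals in the ranked lists of the replicates were 31.0 and 35.3, both under the threshold. The other (chrIII:7559909-7560224) lay 2026 bp past the gene end with a conservative signal of 64.9 at rank 2010, and the ranked lists gave 37.1 in replicate 1 and 29.2 in replicate 2. It is the downstream sequence above, and it missed the larger list, where its IDR score of 817 was under the lowest score kept, 830. The nearest transcript start to it was that of lgc-12, a ligand-gated ion channel gene, 2105 bp away, while that of ceh-13 was 4407 bp away. Near the other 3 ceh-13 sites no protein-coding transcript start was closer than that of ceh-13.

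The midbody gene lin-39 (chrIII:7528641-7536632, minus strand) had 2 conservative peaks. One (chrIII:7534589-7534904) lay inside the gene, in the 5' UTR and 58 bp downstream of the start of a shorter transcript. Its signal was 82.6 in the conservative list, just under the median, at rank 1287. Replicate 2 held it in its thresholded list with a signal of 42.8 at rank 1142, whereas in replicate 1 it had 42.2 and an IDR score of 691, under the threshold. In the larger list it was joined by a weak overlapping peak of 15.2 that was matched to the same input peaks.

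The stronger lin-39 peak (chrIII:7520720-7521035) lay 7763 bp past the end of the gene and 33 bp upstream of a cux-7 transcript start, with C07H6.2 starting 131 bp away. Its signal was 127 in the conservative list at rank 491, 59.2 in replicate 1 at rank 641 and 70.5 in replicate 2 at rank 366. It was therefore in both replicates' lists, but by the nearest transcript start it belongs to cux-7 and not to lin-39. A peak just upstream of the longer lin-39 transcript, 98 bp from its start, appeared only in the ranked lists. Ranked with the conservative peaks it had a signal of 55.4 and a score of 694, so it fell under the threshold.

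The gene mab-5 (chrIII:7776835-7783454, minus strand) had 2 conservative peaks and 1 further site in the larger list. The intron site shown above (chrIII:7780472-7780787) lay 2824 bp downstream of the start with a conservative signal of 66.1 at rank 1951. Its ranked signals in the replicates were 34.0 and 31.1, and neither passed the threshold. The site 987 bp upstream of the start (chrIII:7784283-7784598) was in the larger list alone, with a signal of 64.3 and a score of 893. Ranked with the conservative peaks its score was 778, and in the replicates its ranked signals were 31.2 and 25.7. The strongest mab-5 peak (chrIII:7771017-7771332) lay 5660 bp past the gene end, at 80.8 in the conservative list and 47.5 in that of replicate 2. It was 1055 bp upstream of snu-23, a splicing factor gene, and replicate 1 held it only in its ranked list, at 38.2. Replicate 1 therefore placed no thresholded peak in the mab-5 window.

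The posterior genes php-3 (chrIII:12074218-12077556) and nob-1 (chrIII:12077793-12084316), both on the minus strand, shared the strongest peak of the family. It lay at chrIII:12084783-12085098, 625 bp upstream of nob-1 and 7385 bp upstream of php-3. Its signal was 149 in the conservative list at rank 331, 56.6 in replicate 1 at rank 713 and 82.6 in replicate 2 at rank 240. Of all genes, 7.39% had a conservative summit at least as strong in their windows. The share was 10.5% for the strongest peak in the lin-39 window, 11.1% for ceh-13 and 23.9% for mab-5. A second site in an intron of nob-1 (chrIII:12082273-12082588) was in the larger list alone at 62.2, with a weak overlapping peak of 7.47. Its ranked signals in the replicates were 31.0 and 26.9. No thresholded peak lay within php-3 or downstream of it, so every thresholded peak in the php-3 window was closer to the nob-1 start.

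The posterior gene egl-5 (chrIII:7814374-7817141, plus strand) had no peak in its window in any of the 4 thresholded lists, and the same held for 59.9% of protein-coding genes. Its strongest ranked peak had a signal of 39.8 at rank 7378 of 56499 and lay in the coding sequence of the neighbour egl-45, which codes for a translation initiation factor subunit, 10556 bp from the egl-5 start. Of the peaks closest to the egl-5 start itself, the strongest had a signal of 35.0 at rank 10601 and lay 6491 bp downstream of it. A ranked peak of 31.9 lay in the coding sequence of egl-5, 863 bp from a start. All 12 peaks that this ranked list has in the window lay in the gene or downstream of it.

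The gap between neighbouring summits of that ranked list that spans the egl-5 start measured 22.1 kb, of which the last 869 bp lie within egl-5 and the rest reaches back toward mab-5. Across the genome 377 of 56493 gaps between neighbouring summits were at least as long (0.667%), and the median gap was 843 bp. A fixed position falls in a long gap more readily than in a short one. The share by number is therefore lower than the share of positions that lie in such gaps, which was not computed. In the ranked list of replicate 1 the gap measured 24.5 kb, with its last 817 bp in the gene. Replicate 2 did have ranked summits there, 1744 and 435 bp upstream of egl-5, with signals of 19.3 and 12.6. The 10 kb upstream of a gene held no ranked summit for 15.3% and 15.2% of all genes in the ranked lists of both replicates, for 11.9% in that of replicate 1 and for 14.1% in that of replicate 2, so an upstream stretch without a summit is not rare by that measure.

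In every ranked list all 6 genes had peaks, and so had nearly all others. The share of all genes was 95.4% and 95.3% in the ranked lists of both replicates, 97.2% in that of replicate 1 and 96.1% in that of replicate 2. The ranked list that contains the conservative peaks held 104 peaks in the Hox windows, and the replicates' ranked lists held 62 and 70. In the first of these the density ran from 5.27 peaks per 10 kb around egl-5 to 9.43 around php-3, while the genome held 5.63. In replicate 1 it was 3.07 around egl-5 and 3.76 around mab-5, under the genome's 4.01, and higher around the other Hox genes. In replicate 2 all were above the genome's 3.67. All 11 sites were present in both replicates' ranked lists, with summits 2 to 85 bp apart and a median distance of 25 bp. The authors had matched each of these sites to a ranked peak of each replicate. Presence in both lists, with summits close by, therefore follows from that matching and is not a separate sign of agreement. The sites differed in how high they stood. For the nob-1 upstream site the place from the top was 1.85% in replicate 1 and 0.681% in replicate 2. For the ceh-13 proximal site it was 1.51% and 2.04%, and for the site past lin-39 1.66% and 1.03%. These 3 sites were the ones in both replicates' thresholded lists, and they were also the 3 with a signal above the median of the conservative list. At the low end, the mab-5 upstream site stood at 8.30% and 11.4%, and the nob-1 intron site at 8.43% and 10.3%.

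**Figure D2:**
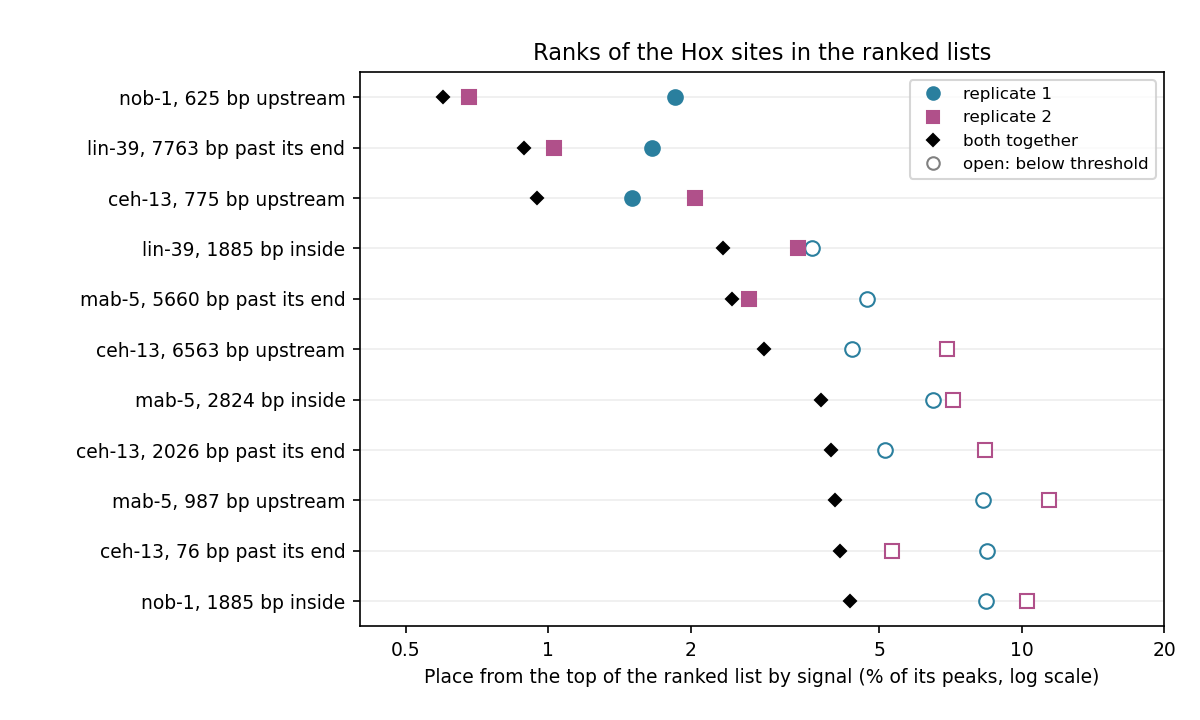
Each row is 1 of the 11 Hox sites, and the horizontal axis gives its place from the top of a ranked list by signal, in percent of the list's peaks on a log scale. Circles stand for replicate 1, squares for replicate 2 and diamonds for the ranked list of both together, and open symbols mark peaks under the replicate's own threshold. The top 3 rows have filled symbols for both replicates, and the lower 6 rows have open symbols for both.

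Of the 10 conservative peaks, 3 overlapped a peak in both replicates' thresholded lists, and 34.1% of all conservative peaks did. None overlapped a peak of replicate 1 alone (12.5% of all), and 2 overlapped a peak of replicate 2 alone (18.6% of all), the lin-39 site in the gene and the site past mab-5. The remaining 5 overlapped none (34.7% of all), and 4 of these 5 lay at ceh-13. With 10 peaks, some of which share inputs, these shares are imprecise. Scores of conservative peaks at Hox genes that lay just above the threshold of 830 were 954, 968 and 977. Just under it were 810 and 809 at the nob-1 intron, 778 upstream of mab-5, 694 and 677 at lin-39 and 666 upstream of mab-5.

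Promoters were taken as the span that begins 2000 bp before a transcript start and ends 500 bp after it. The conservative list had a summit in that span for ceh-13, lin-39 and nob-1. These are 3 of 6 genes, beside 9.57% of all genes. The larger list added mab-5, giving 4 of 6 beside 9.85%. In replicate 1 the 2 genes were ceh-13 and nob-1 (5.21% of all), and in replicate 2 they were the same 3 as in the conservative list (6.31% of all). The ceh-13 and nob-1 promoters were therefore called in each list. In the ranked list that contains the conservative peaks all but egl-5 had a promoter summit, 5 of 6 beside 65.8%. Of the 11 sites, 8 had a Hox gene at the nearest protein-coding transcript start, 5 lay within 2000 bp of a Hox start, and 2 lay within 500 bp of any protein-coding start. The shares over all conservative peaks were not computed for these counts. The first 2 counts are partly set by the rule, since sites were collected within 10 kb of a Hox gene.

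Counted per gene, ceh-13 had the most of the family, with 5 conservative summits within 10 kb, which only 0.726% of protein-coding genes reached. One of the 5 was the weak overlapping peak. With all peaks of signal under 20 left out, the number was 4, which 1.51% of genes reached. The genes lin-39 and mab-5 had 2 each (13.9% of genes had as many), and php-3 and nob-1 had 1. Density per window length gave the same order at the top. It was 2.23 conservative peaks per 10 kb around ceh-13, 0.751 around mab-5, 0.714 around lin-39, 0.428 around php-3 and 0.377 around nob-1, while the genome held 0.252. In each replicate's thresholded list ceh-13 kept 1 peak, so its high count rests on the list drawn from both replicates.

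**Figure D3:**
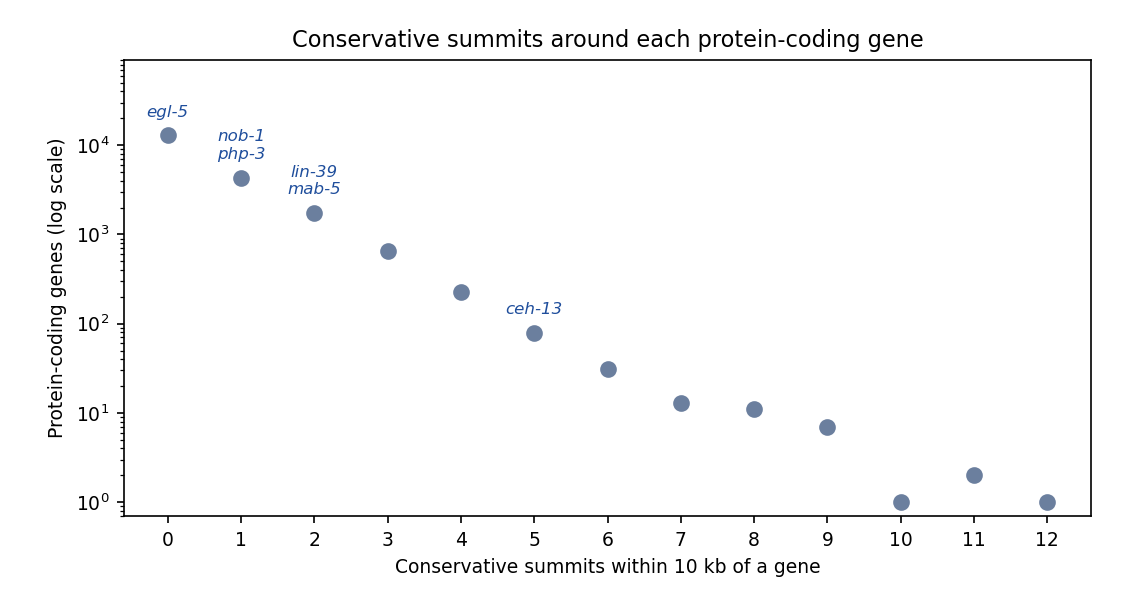
The horizontal axis gives the number of conservative summits within 10 kb of a gene, and the vertical axis gives, on a log scale, how many of the 19973 protein-coding genes had that number, with the Hox genes written above their point. The gene ceh-13 is at 5 summits and egl-5 is at 0, where 12867 genes are.

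The neighbourhood outside the windows differed between the pairs. Beyond its window ceh-13 had the next conservative summit 12.4 kb away at R13A5.7, with a signal of 69.5. For lin-39 the next was the distal ceh-13 site, 12.5 kb upstream. For mab-5 it was 18.1 kb away at pcp-1 (90.6). For egl-5 it was the mab-5 intron site, 33.7 kb away. Around php-3 and nob-1 no further conservative summit was found until 128 kb past php-3, at Y56A3A.7 (110.3). The nearest tRNA gene lay between 82.1 and 292 kb from the 11 sites. The distal ceh-13 site lay 3942 bp from the microRNA gene mir-231, the closest noncoding gene to it.

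Sequence at the summits was searched on both strands for 8 motifs. TGATNNAT was found within 50 bp of the summit in 5 of the 10 conservative Hox peaks, beside 10.2% of all conservative peaks. The matches were TGATAGAT at the distal, TGATTTAT at the proximal and TGATGGAT at the downstream ceh-13 site, TGATTGAT at the lin-39 site in the gene, and TGATATAT at the mab-5 intron site. Within 25 bp there were 3 (5.35% of all) and within 100 bp 5 (17.8% of all). In the larger list 5 of 13 Hox peaks had a match within 50 bp, beside 10.3% of all its peaks. These were not the same 5, since the downstream ceh-13 site was not in that list. In flanks from 250 to 300 bp away none of the 10 peaks had a match, and 7.69% of all conservative peaks did, so a count of 0 is near the share of the list. The motifs and the genes were chosen with earlier results of these data known, so the count of 5 is given as a description. The 8-letter strings differ in how common they are: TGATTGAT stood within 50 bp of 2.78% of conservative summits, TGATTTAT of 2.02%, TGATGGAT of 0.952%, TGATAGAT of 0.595% and TGATATAT of 0.159%. Of the 3 sites in both replicates' thresholded lists, the ceh-13 proximal site was the one with a match, and neither the nob-1 upstream site nor the site past lin-39 had one.

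**Figure D4:**
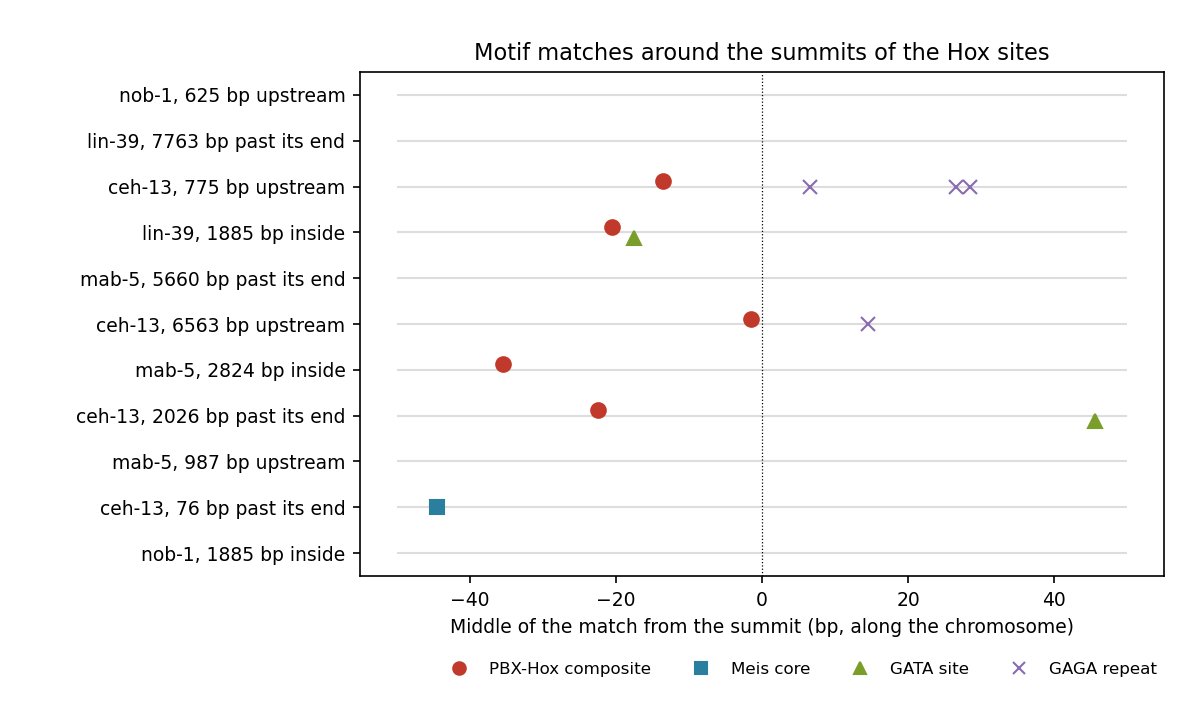
Each row is 1 of the 11 Hox sites, ordered as in the plot of ranks, and the horizontal axis is the distance from the summit in bp along the chromosome. Symbols mark the middle of each match to the composite TGATNNAT and to 3 of the other motifs, named in the legend. The composite stands in 5 rows, in 3 of them at ceh-13, and the top row, upstream of nob-1, is empty.

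The string TGATGGAT is known from mouse, where it is the core of the autoregulatory element of Hoxb1, bound by Hoxb1 with a Pbx protein. It was looked at separately after the matches had been seen. Anywhere in the peak it was present in 3 conservative Hox peaks and in 1.63% of all conservative peaks (41). All 3 lay in the window of ceh-13, the Hox1 gene of the worm, but they amount to 2 sites. The distal site and its weak neighbour share 1 copy, 83 bp past the distal summit. The downstream peak, whose nearest transcript start was that of lgc-12, held 2 copies, starting 26 and 154 bp before the summit. Whether any of these copies acts on ceh-13 was not tested. A match to TGATNNAT anywhere in the peak was present in 6 of 10 Hox peaks and in 24.3% of all. Among the 6 was the weak neighbour, which holds the copy it shares with the distal peak, so they are not all separate sites.

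The other motifs were each found in at most 2 of the 10 Hox peaks. TGACAG, the core bound by Meis-type proteins such as UNC-62, was found at the ceh-13 site just past the gene end and nowhere else, in 1 of 10 peaks beside 4.88%. TGATAA, a site of factors such as ELT-2, was at 2 (11.4% of all), and at lin-39 it overlapped the composite match. GAGAGA was at 2 (22.3%), both upstream of ceh-13. No match within 50 bp was found for TGATTGAC, part of a composite site of PBX and Meis-type proteins (0.753% of all). The same held for TAATTA, a homeodomain core (1.63%), CATATG (1.31%) and CACGTG (5.43%). The GC content of the 101 bp around the summits had a median of 43.6% over the 11 sites and 46.5% over all conservative peaks. Among the 94 ranked peaks in the Hox windows that did not pass the conservative threshold, 12 held TGATNNAT (12.8%), and 7.31% of all such ranked peaks did. In the egl-5 window it was 1 of 12.

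Genes that act with the Hox genes were counted in the same way, from lists chosen for their known roles. Of 5 TALE genes whose proteins can partner Hox proteins, 4 had a conservative summit within 10 kb and all 4 had one in each replicate's list. They were psa-3 (strongest signal 179), ceh-20 itself (168), unc-62 (165) and ceh-60, and ceh-40 had none. Of 13 regulators of Hox genes, 3 had a summit: sor-1, a Polycomb-like repressor (164), egl-27, a homolog of metastasis-associated proteins (156, with 11 summits), and bar-1, a beta-catenin (64.9). Of 10 genes studied as Hox targets, 3 had one: psa-3, the FGF gene egl-17 (149) and the guidance gene mig-13 (104). The share of all genes under this rule was 35.6%, beside 23.1% of the regulators and 30% of the targets. In lists this short such shares are imprecise, so neither is read as a difference from all genes. The strongest peaks in the windows of ceh-13, lin-39 and nob-1 had signals of 124 to 149. Those of psa-3, ceh-20, unc-62, sor-1 and egl-27 were above this range, and those of mig-13 and bar-1 were below it. That of ceh-60 lay within it, and that of egl-17 was just above the nob-1 peak. The lin-39 peak used here is the one nearest to the cux-7 start, and the conservative peak nearest to a lin-39 start had 82.6. This range leaves out mab-5, whose strongest peak had 80.8, below that of mig-13 and above that of bar-1.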

How the data were processed

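CEH-20 peaks of 2 biological replicates of 1 group were analysed. Per the deposited file descriptions, the authors made each list on ce11 from aligned reads, either of a single replicate or of the pair, and used another file beside them. Sources used here name neither aligner nor peak caller. The authors deposited for each peak a signal (scale not given), a −log10 q-value and a score scaled from the IDR up to 1000, whose lowest value in thresholded lists was 830. Read counts were not analysed here, so depth is unknown.

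Summits were placed on WBcel235 with Ensembl release 115 genes, with coordinates counted from 1. Peaks of the conservative and larger lists overlapping by at least 1 bp, also those of the same list, were taken as 1 site. Peaks of the other lists were assigned to a site where they overlapped its strongest peak. Motifs were searched 50 bp on either side of a summit, and in flanks that hold 101 bp in total, whose exact edges were set, after others had been tried, to match an earlier analysis of these data (the Hox count was 0 with each, and the share over all peaks is that of the edges used). No comparison between groups exists, so no test was run and counts stand beside the share over all genes or peaks. Named were the Hox genes with all their thresholded peaks, neighbours with the nearest start, and, with their values, up to 3 members of each further list. Members, lists and motifs were chosen with earlier results of these data known. Alternatives changed the list, the replicates, the distance, the overlap and the motif window. Counting was tested on simulated data. Python 3.11.15, numpy 2.4.6, pandas 2.3.3 and matplotlib 3.10.9 were used.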

Additional observations from a re-analysis of the deposited data

How the results depend on the processing

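Of 33 alternatives to the 5 counts, 26 stayed within 1.5 times. The number of Hox genes with a summit was 4 or 5 throughout, and the number with a promoter summit was 2 to 4. The 10 conservative peaks fell to 3 in the stronger 1261 peaks of the list, to 6 within 5 kb and to 5 within 2 kb. Without replicate 1 or replicate 2, that is in the thresholded list of the other replicate alone, they numbered 3 to 5, and these lists were thresholded separately. The peaks with TGATNNAT numbered 3 within 25 bp of the summit and 0 in the flanks, where 7.69% of all conservative peaks had one. Without peaks of signal under 20, an alternative chosen after seeing the data, 9 peaks were left and the other 4 counts kept their values. No paired analysis was possible because the 2 samples belong to 1 group. The unknown depth leaves signals without an error, so neighbours in rank cannot be told apart.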
